A study of Mus musculus with 2 samples.

Results

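Surface ectoderm is the outer epithelium of the embryo. By a rule on marker genes, 338 of the 21723 cells captured from the cardiac neural crest region were taken as surface ectoderm. Of these, 167 were in the WT library and 171 in the KO library. A cell was taken as surface ectoderm outside the placodes if it held at least 1 unique molecular identifier (UMI, 1 counted RNA molecule) of Epcam, a UMI of at least 2 of the 7 epithelial genes Cdh1, Trp63, Grhl2, Wnt6, Krt8, Krt18 and Cldn6, and no UMI of 10 excluded genes. The excluded genes were the 4 otic and placode genes Pax2, Pax8, Oc90 and Fbxo2 and the 6 endoderm genes Foxa1, Foxa2, Nkx2-1, Nkx2-3, Foxe1 and Pax9. Cells that met the Epcam and epithelial part of the rule are called epithelial below, whether or not they were then excluded. The cells were thus selected on the counts of these 18 genes, whose levels are given as a description with no test.

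The study profiled single cells of mouse embryos at embryonic day 9.5 (E9.5) to compare the region in which cardiac neural crest cells (NCCs) arise with and without Prdm6, a member of the PR domain family of transcriptional regulators. The dissected piece of each embryo reached from the level of the otic placode to somite 4, and 3′ droplet libraries were made from its cells. Each genotype gave 1 library. WT stands for Prdm6+/+; Wnt1-Cre2; ZsGreen1 and KO for Prdm6f/f; Wnt1-Cre2; ZsGreen1, both on C57BL/6. All embryos thus carried the green reporter ZsGreen1 and the Cre driver Wnt1-Cre2, whose activity follows the Wnt1 lineage. The Wnt1 lineage includes the neural crest and dorsal neural tube, so the floxed allele is aimed at those cells and not at the surface ectoderm as such. Embryos were pooled, and cells were not assigned to embryos here. Genotype, library and embryo make-up therefore cannot be told apart, no test between genotypes was possible, and every interval below is a 95% interval that covers counting error only.

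Surface ectoderm lies over the neural tube and pharyngeal arches and gives rise to the epidermis. Its thickened patches, the placodes, form the otic vesicle and cranial sensory neurons, and pharyngeal endoderm meets it at the pharyngeal clefts. Trp63 drives the basal epidermal programme, the Grhl and Tfap2 factors act in surface ectoderm identity and junction formation, and Wnt6 is a ligand made in dorsal ectoderm. The ectoderm also makes ligands of the BMP, FGF, PDGF and endothelin families that act on the neural crest and mesenchyme beneath it.

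There were 11958 WT and 9765 KO cells, with medians of 1597 and 1703 UMIs per cell. Surface ectoderm cells were deeper, with medians of 2152 UMIs in WT and 2709 in KO and totals of 387967 and 466135. Of the barcodes, 26 occurred in both libraries, and 0 of these belonged to a surface ectoderm cell. Levels are given as UMIs per 1000000 summed UMIs of the named cells in a library (CPM). Ratios are log2 ratios of CPM with an exact conditional interval in parentheses. Prdm6 had 1 UMI in the WT and 0 in the KO surface ectoderm cells, so its deletion could not be checked in them, and 3′ reads would not separate the alleles.

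The genes of the rule were unevenly spread over the chosen cells. Epcam (chr17:87635979-87651129, GRCm38), an epithelial cell adhesion molecule, was at 673 CPM in WT and 614 CPM in KO. Krt8 and Krt18, the paired keratins of simple epithelia, were at 441 and 464 CPM in WT and at 315 and 324 CPM in KO. Krt8 had a UMI in 58.7% (WT) and 54.4% (KO) of these cells, Krt18 in 66.5% and 53.8%. With these cells thinned at random to 1000 UMIs, Krt18 kept a UMI in 67 of 167 WT and 40 of 171 KO cells. Krt8 kept one in 57 and 52 of them, and Epcam in 110 and 85. Cdh1, which encodes E-cadherin, was at 79.9 CPM in WT and 146 CPM in KO. When the same cells were thinned to 1000 UMIs, Cdh1 kept a UMI in 7.78% (WT) and 15.8% (KO) of them, whereas among the fewer cells that still met the rule on their thinned UMIs its KO to WT ratio on the log2 scale stood at −0.08 (−1.14 to 0.95). Cldn6, a tight junction claudin, was at 338 and 290 CPM, and Grhl2, a regulator of junction genes, at 134 and 116 CPM. The genes that mark ectoderm rather than epithelium in general were sparse. Trp63 (chr16:25683763-25892102) had a UMI in 16 WT and 18 KO cells, at 46.4 and 47.2 CPM. Wnt6 (chr1:74771892-74785322) had a UMI in 37 WT and 47 KO cells, at 124 and 131 CPM.

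Most of the cells sat close to the threshold. Exactly 2 of the 7 epithelial genes were found in 95 WT and 104 KO cells, and 3 in 51 and 35. The remaining cells of each library had 4 or more. Just outside the rule lay 194 WT and 171 KO cells with Epcam and only 1 of the 7 genes. A further 343 WT and 228 KO cells had 2 or more of the 7 genes without Epcam. A single UMI of an excluded gene kept out 69 WT and 65 KO epithelial cells, so the border with the placodes and the endoderm rests on single molecules.

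The label was checked against fixed markers that the rule did not use. The 7 ectoderm markers Tfap2a, Tfap2c, Dlx3, Grhl3, Perp, Krt5 and Msx2 summed to 219 CPM in WT and 232 CPM in KO surface ectoderm cells. They summed to 52.7 and 50.3 CPM in cells that were not epithelial. In epithelial cells left out for a placode gene they summed to 65.1 and 77.6 CPM, and in those left out for an endoderm gene to 58.5 and 81.7 CPM. The ectoderm sum was thus highest in the surface ectoderm cells of both libraries. Endoderm markers went partly against the label. Sox17, Shh, Hhex, Ttr, Apoa1 and Isl1 summed to 363 CPM in WT and 150.2 CPM in KO surface ectoderm cells. They summed to 132 and 102.4 CPM in cells that were not epithelial and 899 and 542 CPM in the cells left out for an endoderm gene. Of the 141 WT and 70 KO UMIs of this sum in surface ectoderm cells, Ttr gave 80 and 19, in 21 and 7 cells.

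A stricter set held the cells with a UMI of Trp63 or Wnt6, which are also genes of the rule, so its size is a description and no support for the label. It numbered 48 cells in WT (28.7% of the surface ectoderm cells) and 61 in KO (35.7%), while after thinning to 1000 UMIs these were 16.2% and 13.5%, so no order between genotypes is read from them. The same share was 5.61% and 7.69% of the cells left out for an endoderm gene, whose median depths were 2497 and 2865 UMIs. It was 1.62% and 1.50% of the cells that were not epithelial, at median depths of 1580 and 1669 UMIs. In this Trp63 or Wnt6 set the ectoderm markers summed to 361 CPM in WT and 381 CPM in KO. The endoderm markers summed there to 72.2 and 57.7 CPM, below their sum in cells that were not epithelial. It held 8 of the 141 endoderm marker UMIs of the WT surface ectoderm cells and 10 of the 70 of the KO cells. The rest lay in the 119 WT and 110 KO surface ectoderm cells without Trp63 and Wnt6, which were the majority in each library. Of the ectoderm marker UMIs, the stricter set held 40 of 85 in WT and 66 of 108 in KO. The label is thus less sure for the cells without Trp63 and Wnt6. Results that rest on those cells are given for the stricter set as well.

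**Figure D1:**
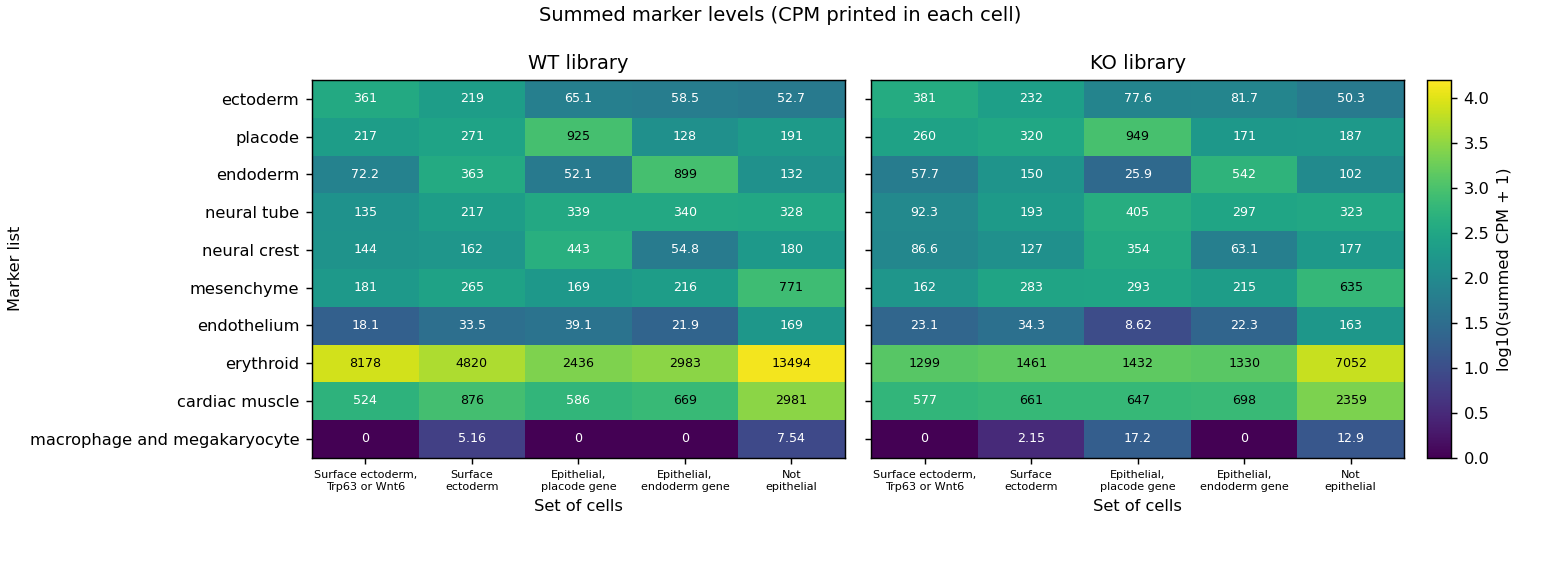
Summed CPM of each fixed marker list (rows) in 5 sets of cells (columns), WT library at left and KO library at right, with the value printed in each cell and colour on a log10 scale of CPM + 1. The ectoderm sum is highest in the surface ectoderm cells with Trp63 or Wnt6 (361 and 381 CPM), and the endoderm sum in the cells left out for an endoderm gene (899 and 542 CPM).

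Placode markers, like those of the endoderm, were above their level in cells that were not epithelial, and markers of the other lineages were below theirs. Placode markers summed to 271 and 320 CPM in WT and KO surface ectoderm cells against 191 and 187 CPM in cells that were not epithelial and 925 and 949 CPM in the cells left out for a placode gene. Mesenchyme markers summed to 265 and 283 CPM against 771 and 635 CPM in cells that were not epithelial, and cardiac muscle markers to 876 and 661 CPM against 2981 and 2359 CPM. Macrophage and megakaryocyte markers had 2 UMIs in WT and 1 in KO. Erythroid markers, the embryonic and adult globins, summed to 4820 CPM in WT and 1461 CPM in KO surface ectoderm cells, against 13494 and 7052 CPM in cells that were not epithelial. Of the 1870 erythroid marker UMIs in WT surface ectoderm cells, 3 cells held 268, 205 and 141, and the next highest held 22. All 3 had a UMI of Trp63 or Wnt6. The highest KO cell held 16. The part of this RNA in the results was not tested, and ratios without the 3 cells are given where they moved.

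Against all other cells of the same library, surface ectoderm cells differed most in Slc2a3, Pdgfa, Npnt and Igfbp2. Of 711 genes with at least 100 UMIs in the cells of each library, 13 were at least 2-fold higher in both libraries (1.83%) and 4 at least 2-fold lower (0.563%). A gene that reached 100 UMIs only through a high level in these cells had to differ, so the counts describe the genes tested and not all genes. Slc2a3 (chr6:122727809-122801640), which encodes the glucose transporter GLUT3, led the list. It stood at 1974 CPM against 188 in the other WT cells and at 2495 CPM against 227 in the other KO cells. The log2 ratios were 3.39 (3.28 to 3.5) and 3.46 (3.37 to 3.56). A UMI of Slc2a3 was found in 68.3% of WT and 80.1% of KO surface ectoderm cells, against 15.9% and 17.4% of the shallower cells that were not epithelial. Pdgfa (chr5:138976014-138997370), the PDGF ligand whose receptor Pdgfra marks mesenchyme, was at 441 CPM against 71.7 in WT and 491 against 74.5 in KO, with log2 ratios of 2.62 and 2.72.

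Genes were ranked by the smaller ratio of both libraries. Npnt, a basement membrane ligand of integrins, had log2 ratios of 2.32 in WT and 2.78 in KO. Hapln1, a link protein of hyaluronan matrix, had 1.63 and 1.45. Agrn, a heparan sulphate proteoglycan of basement membranes, had 1.29 and 1.33, and Dag1, which encodes the laminin receptor dystroglycan, had 1.32 and 1.72. The mucin-type glycoprotein gene Pdpn had 1.28 and 1.69. Igfbp2, an insulin-like growth factor binding protein, had 2.21 and 2.17. Spry2, a feedback inhibitor of FGF signalling, was at 1077 CPM against 526 in WT and 865 against 398 in KO. Hmgn3, Bex1, App and Ptprf completed the 13 genes, with ratios between 1.01 and 1.33. Efnb2 and Bex4 ranked next, at 1.03 and 1.11 in WT and 0.91 and 0.84 in KO.

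**Figure D2:**
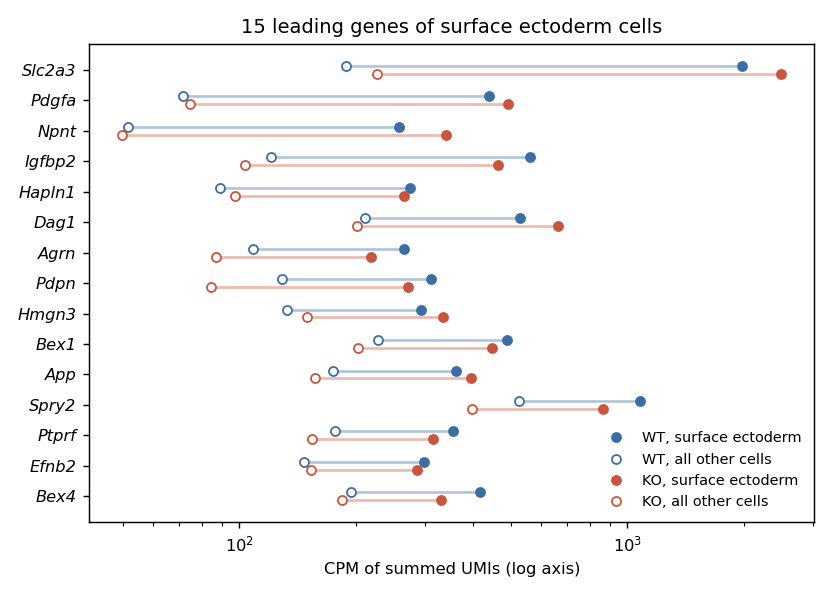
CPM on a log axis of the 15 genes that ranked highest in surface ectoderm cells against all other cells, WT in blue and KO in red, with filled points for surface ectoderm and open points for the other cells. Slc2a3 is highest, at 1974 CPM in WT and 2495 CPM in KO surface ectoderm cells against 188 and 227 CPM in the other cells.

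Fixed gene lists gave the epithelial make-up of these cells against cells that were not epithelial. Of 8702 genes with at least 10 UMIs in surface ectoderm cells, 294 were at least 2-fold higher in both libraries (3.38%) and 81 at least 2-fold lower (0.931%). All counts against cells that were not epithelial, here and in the following 2 paragraphs, are of list genes with at least 10 UMIs in surface ectoderm cells. A gene of low level that reached 10 UMIs only because it was high in these cells had to differ, so the counts are not of whole lists. Of 13 basal and early stratified epithelium genes, 10 were higher, among them Fermt1 (kindlin 1), at 56.7 against 4.44 CPM in WT and 70.8 against 6.03 in KO, and Frem2, at 92.8 against 18.1 and 96.5 against 17.4. The periderm and simple epithelium list had 11 genes in the files, of which 4 reached 10 UMIs and were higher, with Krt7 at 79.9 against 6.04 CPM in WT and 88.0 against 5.92 in KO. Of 20 junction genes, 12 were higher, for instance Cldn7, a claudin, at 170 against 22.2 and 142 against 17.2 CPM, and Cdh3 (P-cadherin), at 90.2 against 19.2 and 77.2 against 15.0. The splicing and protease list held 9 of 10 higher, with the epithelial splicing regulator Esrp1 at 56.7 against 9.13 and 45.1 against 10.1 CPM, and the membrane protease Prss8 at 74.7 against 9.33 and 79.4 against 7.53. Of 6 desmosome genes, 3 were higher.

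The transcription factors were more mixed, with 6 of 15 higher. Foxi2, a forkhead gene of non-placodal ectoderm, was at 131 against 10.0 CPM in WT and at 195 against 11.3 in KO. Gata3 was at 116 against 27.1 and 135 against 23.9, and Tfap2a at 79.9 against 13.3 and 62.2 against 14.9. Dlx3 was at 20.6 against 2.60 and 27.9 against 4.32 CPM. Isl1, which is on this list and also among the endoderm markers above, was at 30.9 against 32.3 and 45.1 against 35.3 CPM. It was thus not 2-fold higher in either library. Mesenchymal genes were low, with 0 of 14 higher and 7 lower. Zeb1, a repressor of E-cadherin, was at 18 against 67.9 and 21.5 against 69.8 CPM, and Twist1 at 92.8 against 210 and 70.8 against 208. Snai2 was not lower, at 69.6 against 55.2 and 62.2 against 47.6 CPM.

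Among ligands that the ectoderm sends to its neighbours, 4 of 20 genes with at least 10 UMIs (21 in the files) were at least 2-fold higher in both libraries and 0 lower, beside 3.38% higher and 0.931% lower over all genes. Of the FGF list 12 of 18 genes reached 10 UMIs, 3 of them higher and 0 lower. Of the BMP list 12 of 16 did, 0 higher and 1 lower, and of the Wnt list 14 of 27 did, 2 higher and 1 lower. The S phase and G2/M lists held 0 of 29 and 0 of 30 genes past 2-fold in either direction. Cardiac muscle and erythroid genes were lower, 9 of 10 and 5 of 5.

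Compared with the 28 WT and 40 KO epithelial cells left out for a placode gene, surface ectoderm cells were lower in Sox9, Sox10, Gbx2 and Rtn1 and higher in Slc2a3, Pdgfa and Peg3. Neural crest markers summed to 442.96 and 354 CPM in the placode gene cells against 162 and 127 CPM in surface ectoderm cells, and neural tube markers to 339 and 405 CPM against 217 and 193 CPM. The part of such cells in the comparison was not tested. Of 1961 genes, 14 were at least 2-fold higher (0.714%) and 15 at least 2-fold lower (0.765%) in both libraries. Genes needed 50 UMIs in each library over both groups, which a gene rare in the smaller group reached only through its level in the surface ectoderm cells, so these counts are a description. Sox9, a factor of the otic placode and the neural crest, was at 485 against 1772 CPM in WT and 345 against 1363 in KO. Its log2 ratios were −1.87 (−2.20 to −1.54) and −1.98 (−2.31 to −1.65). Sox10, a neural crest and otic factor, had ratios of −1.84 and −1.96, Gbx2, an otic homeobox gene, −1.91 and −1.98, and Erbb3, a neuregulin receptor of the neural crest, −1.41 and −2.14. Rtn1, which is known from neurons, had −2.37 and −2.28. Higher in surface ectoderm cells was Peg3, an imprinted zinc finger gene, at 2593 against 664 CPM in WT and 1851 against 612 in KO. Slc2a3 was also higher than in these cells, with ratios of 1.89 and 2.89, as was Pdgfa, with 1.91 and 1.83. Sostdc1, a secreted inhibitor of BMP and Wnt signalling, was at 170 against 52.1 and 127 against 17.2 CPM, on 4 and 2 UMIs in the placode gene cells. Sparc, a matrix glycoprotein gene, rested on 1 and 3 UMIs there, with ratios of 4.04 (1.52 to 9.36) and 2.58 (0.97 to 4.89).

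Compared with the 107 WT and 91 KO epithelial cells left out for an endoderm gene, surface ectoderm cells were lower in Shh, Ptch1 and Gata6 and higher in Hapln1, Sostdc1 and Foxi2. Of 2705 genes, 9 were at least 2-fold higher (0.333%) and 9 at least 2-fold lower (0.333%) in both libraries, with the same minimum and limit as in the comparison with the placode gene cells. Shh, the Hedgehog ligand made by pharyngeal endoderm, was at 51.6 against 289 CPM in WT and 42.9 against 305 in KO. Ptch1, the Hedgehog receptor and a target of the pathway, had log2 ratios of −1.14 (−1.46 to −0.83) and −1.31 (−1.58 to −1.03). Gata6 was at 106 against 252 and 68.6 against 204 CPM. Hapln1 ranked highest by the smaller ratio of both libraries, at 276 against 11 CPM in WT and 266 against 18.6 in KO, on 3 and 5 UMIs in the endoderm gene cells. Sostdc1 was next in rank with ratios of 2.96 and 4.09, and Foxi2 with 1.85 and 2.72. Sox9 was higher here, with 1.47 and 1.49, so that it lay between the endoderm and the placode gene cells. The 4 genes that ranked highest against all other cells were not 2-fold higher in both libraries here. Slc2a3 had 0.63 and 0.60, Pdgfa 1.56 and 0.78, Igfbp2 0.87 and 0.39, and Npnt −0.11 and −0.21.

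Surface ectoderm cells differed among themselves along the split by Trp63 or Wnt6. To compare cells at 1 depth, each was thinned at random to 1000 UMIs to decide whether it had either gene, and all its UMIs were then counted. This gave 27 WT and 23 KO cells with a UMI and 140 and 148 without. Median depths were 2087 against 2168.5 in WT and 2739 against 2695 in KO. Before thinning, 48 WT and 61 KO cells had a UMI of either gene, so the side without one still held some cells with these genes. Of 1568 genes, 7 were at least 2-fold higher (0.446%) and 6 at least 2-fold lower (0.383%) in both libraries. Sostdc1 was at 488 against 115 CPM in WT and 311 against 98.8 in KO. Igfbp2 was at 1307 against 430 and 867 against 402, and Hapln1 at 715 against 200 and 572 against 220. Of the 15 genes that ranked highest against all other cells, 10 had a ratio above 0 in both libraries here, and 4 had intervals above 0 in both, namely Slc2a3, Pdgfa, Igfbp2 and Hapln1. Npnt, with 0.13 (−0.74 to 0.92) and 0.56 (−0.07 to 1.15), was not set apart, and Bex4 had −0.57 and −0.97. Slc2a3 was at 4462 against 1543 CPM in WT and 4121 against 2249 in KO. Pdgfa was at 767 against 384 and 736 against 454 CPM, and Krt7 had ratios of 1.46 (0.21 to 2.61) and 1.28 (0.13 to 2.32).

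Endoderm markers were lower on the Trp63 or Wnt6 side, where 14.8% (WT) and 13.1% (KO) of all UMIs lay. Sox17, Shh, Hhex, Ttr, Apoa1 and Isl1 summed to 5 UMIs there and 136 on the other side in WT and to 2 and 68 in KO, with ratios of −2.24 (−3.88 to −0.98) and −2.36 (−5.43 to −0.45). Isl1 did not share this in WT, with 2 and 10 UMIs and a ratio of 0.20. In all cells with a UMI of either gene before thinning, the endoderm markers together had 8 UMIs in WT and 10 in KO. On the WT side with a UMI after thinning Rbp4 had 1 UMI, against 103 on the other side, and Ttr had 2 and 78. For Shh the UMIs were 1 and 19 in WT, 0 and 20 in KO, and both intervals included 0. Gata6 was split in the same way, at 2 and 39 UMIs in WT against 0 and 32 in KO. The 8 genes that ranked lowest, among them the long noncoding RNA Hotairm1 from the HoxA cluster, had 2 to 9 UMIs on the Trp63 or Wnt6 side, and most of their intervals included 0.

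**Figure D3:**
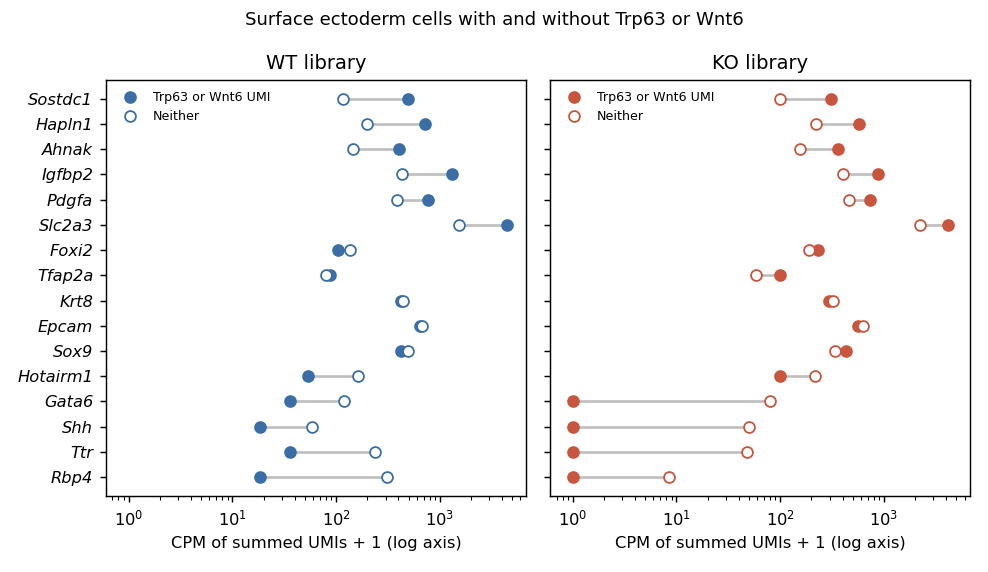
CPM + 1 on a log axis in surface ectoderm cells with and without a UMI of Trp63 or Wnt6 after thinning (filled and open points), by library, so that a level of 0 sits at 1. Slc2a3, Sostdc1 and Hapln1 are higher in the cells with a UMI in both libraries, while Rbp4, Ttr, Shh and Gata6 have 0 to 2 UMIs there and lie at the left.

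A split by axial position gave little. A UMI of a Hox gene of paralog groups 3 to 5, which mark the hindbrain and neck levels, was found after thinning in 46 WT and 22 KO cells. Of 1568 genes, 0 were at least 2-fold higher (0.0%) and 1, Rhno1, at least 2-fold lower (0.0638%) in both libraries. Sox10 was mostly on the side without Hox UMIs, with 2 against 29 UMIs in WT and 0 against 34 in KO. That side was the larger, with 121 WT and 149 KO cells. A split by Dlx3, Dlx5 or Dlx6 left 11 WT and 7 KO cells with a UMI, on which 3 of 1568 genes were at least 2-fold higher (0.191%) and 26 lower (1.66%). The 16 genes ranked for it had 1 to 10 UMIs on the Dlx side, too few to describe them.

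Surface ectoderm made up 1.40% (Clopper-Pearson, 1.19 to 1.62) of the WT cells and 1.75% (1.50 to 2.03) of the KO cells, a log2 ratio of 0.33 (0.01 to 0.64). This order did not hold at equal depth. With each cell thinned to 1000 UMIs before the rule was applied, 65 of 10597 WT cells (0.613%) and 43 of 9640 KO cells (0.446%) qualified, a ratio of −0.46 (−1.05 to 0.12). Among cells of under 1500 UMIs the shares were 0.302% and 0.202%, among cells from 1500 up to 2500 UMIs 1.96% and 1.68%, and among deeper cells 3.19% and 4.61%. The depth of the cells moved with the share, and no order between genotypes is read from it. As a share of all epithelial cells, surface ectoderm was 54.8% in WT and 55.7% in KO.

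**Figure D4:**
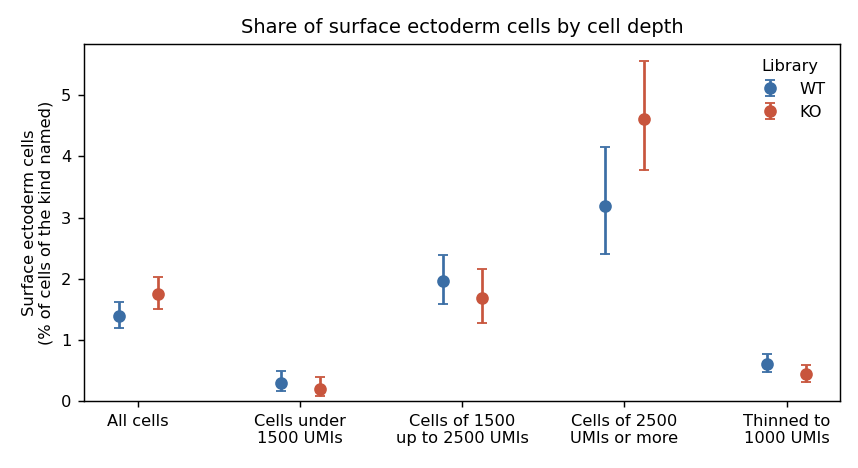
Points give the share of cells that met the rule, in percent, and bars its Clopper-Pearson 95% interval, for all cells, for 3 classes of depth and after thinning, WT in blue and KO in red. The KO share is above the WT share over all cells (1.75% and 1.40%) and below it after thinning to 1000 UMIs (0.446% and 0.613%).

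Within surface ectoderm cells, the expression levels in KO and WT were close for most genes. Of 3618 genes with at least 50 UMIs over both libraries, 58 differed at least 2-fold (1.6%), 27 being higher (0.746%) and 31 lower (0.857%) in KO. The median log2 ratio over all 3618 was 0.01, and the central 90% lay between −0.61 and 0.59. Of the 27 higher genes, 20 also had a ratio above 0 in cells that were not epithelial, and of the 31 lower genes 29 had a ratio below 0 there. Over all genes compared, 67.1% of those above 0 in surface ectoderm were also above 0 there, and 70.7% of those below 0 also below. Of the genes past 2-fold, 4 of each direction passed it there as well.

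The lowest ratios belonged to genes of yolk sac or endoderm and of blood. Rbp4 (chr19:38116629-38125281), the retinol binding protein of plasma, had 104 UMIs in 20 WT cells and 3 UMIs in 3 KO cells, and 1 WT cell held 34. Its levels were 268 and 6.44 CPM, a log2 ratio of −5.38 (−7.68 to −3.79). Rbp4 was also lower in KO among cells that were not epithelial, with −2.44 (−2.84 to −2.06), and in the endoderm gene cells, with −3.37 (−4.36 to −2.51). Ttr, which encodes the carrier transthyretin, had 80 and 19 UMIs and a ratio of −2.34 (−3.14 to −1.60). Its ratio was 0.68 on few UMIs in the Trp63 or Wnt6 set. Ttr was also lower in KO among cells that were not epithelial, with −1.04 (−1.29 to −0.80), and in the endoderm gene cells, with −2.23 (−2.95 to −1.58). A UMI of either gene was found in 27 WT and 9 KO surface ectoderm cells. In the Trp63 or Wnt6 set, Rbp4 had 2 WT and 0 KO UMIs, so nearly all of its UMIs lay in the cells without these markers. The embryonic and adult globin genes Hba-a1, Hba-a2, Hbb-bh1, Hba-x and Hbb-y had ratios between −2.79 and −1.48, against −1.15 to −0.72 in cells that were not epithelial. Without the 3 erythroid-rich WT cells the ratios were −1.52 (−2.13 to −0.94) for Hba-a1, −1.08 for Hba-a2, −1.23 for Hbb-bh1, −1.28 for Hba-x and −1.06 for Hbb-y. No such cells were taken out elsewhere, where 540 WT and 214 KO cells outside the surface ectoderm held 100 or more erythroid marker UMIs. The 2 sets of ratios are thus not alike. In the endoderm gene cells the same genes had −1.42 to −0.93.

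Most of the other ranked genes had few UMIs, each spread over many cells. Lower in KO were Snd1, Prr12 and Sqle, the last encoding squalene epoxidase of cholesterol synthesis, with ratios of −1.57 (−2.48 to −0.73), −1.54 (−2.35 to −0.79) and −1.52 (−2.40 to −0.70). In cells that were not epithelial these genes had −0.06, −0.36 and −0.28. Higher in KO were Rpia, an enzyme of the pentose phosphate pathway, with 11 UMIs in WT and 41 in KO and a ratio of 1.63 (0.65 to 2.74), and Ndufb3, a subunit of respiratory complex I, with 30 and 93 and a ratio of 1.37 (0.76 to 2.01). Vmp1, an autophagy gene, had 1.44 (0.47 to 2.50), whereas cells that were not epithelial had −0.23 (−0.37 to −0.09). Bms1 and Nol8, both of ribosome assembly, had 1.35 (0.51 to 2.26) and 1.23 (0.41 to 2.12), and Epb41l2 had 1.25 (0.34 to 2.24). Rpia, Ndufb3, Bms1 and Nol8 were also above 0 in cells that were not epithelial, with 0.19, 0.37, 0.33 and 0.39. In the endoderm gene cells these genes had 0.93, 0.68, 1.02 and 0.61. Epb41l2 had −0.04 and 0.09 in these sets, and Vmp1 had −0.46 in the endoderm gene cells. Hist1h2ae and Wfdc2 were higher by similar amounts elsewhere, with ratios of 1.50 and 1.40 in surface ectoderm and 1.71 and 1.38 in cells that were not epithelial.

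Single cells decided 2 of the ranked genes. Ankrd1 had 15 UMIs in WT and 43 in KO, of which 1 KO cell held 34. Col1a1, a fibrillar collagen of mesenchyme, had 13 and 37 UMIs, of which 1 KO cell held 29. Their ratios of 1.25 and 1.24 became −0.27 and −0.58 without the cell with most UMIs in each library. Of the 58 genes, 54 stayed past 2-fold in the same direction when their own top cell was left out in each library.

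**Figure D5:**
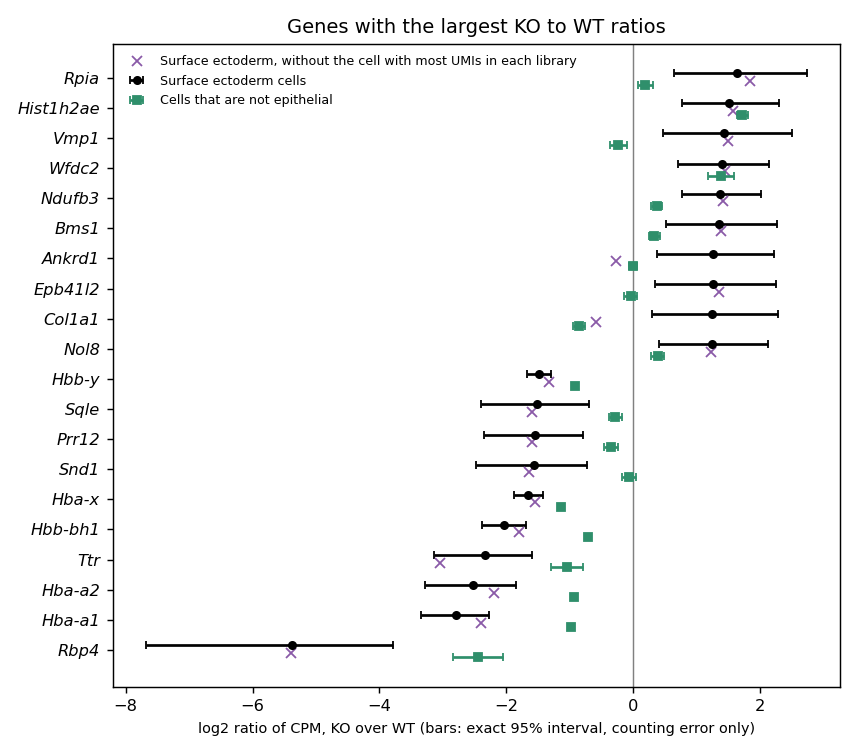
Log2 ratio of CPM, KO over WT, for the 10 highest and the 10 lowest ranked genes, with exact 95% intervals for counting error. Black points are surface ectoderm cells, green squares cells that are not epithelial, and crosses surface ectoderm without the cell with most UMIs in each library; the crosses of Ankrd1 and Col1a1 lie below 0.

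Among ligands and pathway targets of the fixed lists, 2 genes were at least 2-fold higher in KO. The share over all genes compared was 0.746% higher and 0.857% lower, and lists this short give no share of their own. In the BMP list, 1 of 6 genes with 50 UMIs was at least 2-fold higher and 0 lower. This was Bmp2 (chr2:133552159-133562885), a BMP ligand of the ectoderm, with 26 UMIs in 17 WT cells and 71 UMIs in 41 KO cells. Its levels were 67.0 and 152 CPM, with a log2 ratio of 1.18 (0.52 to 1.89), against −0.11 in cells that were not epithelial. In the Trp63 or Wnt6 set the ratio of Bmp2 was 0.78 (−0.17 to 1.83). In cells that met the rule after thinning it was −0.50 (−1.94 to 0.83), so its direction did not hold there. Bmp4 had 21 and 30 UMIs and a ratio of 0.25 (−0.60 to 1.13), and Bmp7 had 28 and 17 UMIs and −0.98 (−1.95 to −0.06).

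In the Wnt list, 1 of 5 genes with 50 UMIs was at least 2-fold higher and 0 lower. Axin2, a target and feedback inhibitor of Wnt signalling, had 22 UMIs in 21 WT cells and 55 UMIs in 43 KO cells. Its ratio was 1.06 (0.32 to 1.84), against 0.05 in cells that were not epithelial. In the Trp63 or Wnt6 set the ratio of Axin2 was 0.62 (−0.50 to 1.85), and after thinning 1.49 (0.27 to 2.81). Lef1, another Wnt target, had 15 and 32 UMIs with a ratio of 0.83 (−0.10 to 1.82), while Nkd1, an inhibitor induced by the pathway, had 13 and 5 with −1.64 (−3.48 to −0.06). The summed Wnt list stood at 835 and 888 CPM.

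The FGF list and the list of signals to mesenchyme and neural crest had 0 genes past 2-fold of 5 and 9 with 50 UMIs. Pdgfa had a KO to WT ratio of 0.16 (−0.14 to 0.45), Efnb2 of −0.06 (−0.43 to 0.31) and Spry2 of −0.32 (−0.52 to −0.12). Edn1, the endothelin ligand of pharyngeal arch ectoderm, had 7 and 12 UMIs and a ratio of 0.51 (−0.95 to 2.10). Cxcl14, a chemokine of ectoderm, had 0 UMIs in WT, which allows up to 3, and 11 in 7 KO cells, 1 of which held 4. Slc2a3 was higher in KO by 0.34 (0.20 to 0.47), but was at −0.06 in the Trp63 or Wnt6 set.

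In the epithelial and ectoderm identity lists, 0 genes were past 2-fold between genotypes, of 7 transcription factors, 5 basal, 12 junction and 3 desmosome genes with 50 UMIs, beside 1.6% of all genes compared, a share at which lists of this size need hold none. Within the transcription factors, Foxi2 had a ratio of 0.57 (0.06 to 1.09) and Tfap2b of 0.82 (0.10 to 1.59), the latter at −0.09 in the Trp63 or Wnt6 set. Sox9 had −0.49 (−0.80 to −0.18) and Sox11 −0.32 (−0.48 to −0.16). Gata3 had 45 and 63 UMIs and a ratio of 0.22 (−0.35 to 0.81).

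Hox genes of paralog groups 3 to 5 summed to 320 CPM in WT and 159 CPM in KO surface ectoderm cells, a log2 ratio of −1.01 (−1.45 to −0.58), against −0.29 (−0.34 to −0.23) in cells that were not epithelial. All 8 genes of these groups with at least 10 UMIs, Hoxa3, Hoxb3, Hoxa4, Hoxb4, Hoxc4, Hoxa5, Hoxb5 and Hoxc5, had a ratio below 0, and only Hoxa3 had as many as 50 UMIs, with −0.37 (−1.18 to 0.44). Of all 8710 genes with at least 10 UMIs, 51.9% had a ratio below 0. Hoxa5 had 14 UMIs in 13 WT cells and 4 in 3 KO cells, and Hoxb5 18 in 14 and 6 in 5. In the Trp63 or Wnt6 set the sum had a ratio of −1.11 (−1.99 to −0.25). Groups 1 and 2 did not share this, with 152 and 148 CPM. Hox genes mark levels along the body axis, and the share of ectoderm dissected from each level cannot be told apart from genotype in these libraries. The pharyngeal endoderm list summed to 938 and 493 CPM, a ratio of −0.93 (−1.17 to −0.68), and in the Trp63 or Wnt6 set −0.48 (−1.11 to 0.15). Of its 3 genes with 50 UMIs, 1 was at least 2-fold lower, beside 0.857% over all genes compared. This was Ttr, with 80 and 19 UMIs.

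Summed over each list, proliferation genes were close between the genotypes. S phase genes summed to 4810 and 4664 CPM, a ratio of −0.04 (−0.13 to 0.05), and G2/M genes to 4673 and 4606 CPM, −0.02 (−0.11 to 0.07). Of the genes with 50 UMIs, 0 of 23 S phase genes passed 2-fold, and 1 of 24 G2/M genes was lower in KO, beside 1.6% past 2-fold and 0.857% lower over all genes compared. This was Aurkb, a mitotic kinase, with 54 UMIs in WT and 29 in KO and a ratio of −1.16 (−1.87 to −0.48), against −0.15 in cells that were not epithelial. Replication histone genes had 0.68 (0.31 to 1.06), against 1.18 in cells that were not epithelial. Xist, expressed from the inactive X chromosome of females, was at 162 CPM in WT and 399 CPM in KO surface ectoderm cells, against 159 and 330 CPM in cells that were not epithelial. The Xist level moved with the library in both sets of cells, and its bearing on the ratios above was not tested.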

How the data were processed

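The authors mapped 3′ droplet reads to mm10 with Cell Ranger 1.3.1 and filtered cells with Scanpy, per the labels. The deposited values are neither counts nor CPM but another unit, the square root of UMIs divided by the cell's total and multiplied by 1641. UMIs were recovered by squaring each value and dividing by the smallest nonzero square of its cell, and 100% of values were whole within 0.01. The files held 18131 genes, of which 17917 matched GENCODE vM21 (GRCm38) and 214 did not. The WT and KO libraries held 20781384 and 18936857 UMIs.

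UMIs were summed per library and set of cells. Shares had Clopper-Pearson, and ratios exact conditional, intervals of 95%. A count of 0 was read as allowing 3 counts. With 1 library per genotype no test was run. Named genes were those of 30 fixed lists (443 of 454 genes in the files; 2 further list genes are not reported here and were left out of every list sum and count) and, by rank: the 10 highest and 10 lowest KO to WT ratios past 2-fold with at least 50 UMIs and an interval that excluded 0, the 15 highest against all other cells with at least 100 UMIs in each library, the 10 highest and 10 lowest against each other epithelial group and the 8 highest and 8 lowest of each split with at least 50 UMIs in each library over both sides. Ranks against other cells used the smaller ratio of the 2 libraries and left out the rule genes, Xist, Tsix and Y-linked genes. The cells, lists and tests were chosen with earlier results of these data known. Doublets were not called here, and whether the doublet removal in the authors' methods preceded deposit is not given in the sources used here. Alternatives covered the rule, thinning, UMI minimum, scaling and, chosen after the values per cell were seen, leaving out erythroid-rich cells and top cells. Analyses used Python 3.11.15, numpy 2.4.6, scipy 1.17.1, pandas 2.3.3 and matplotlib 3.10.9.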

Additional observations from a re-analysis of the deposited data

Results flagged for a closer look

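Vmp1 and Col1a1 were flagged because their KO to WT ratios in surface ectoderm cells had the opposite sign from those in cells that were not epithelial, with both intervals excluding 0. The difference itself was not tested. Vmp1 had a log2 ratio of 1.44 in surface ectoderm, from 12 UMIs in 12 WT cells and 39 UMIs in 32 KO cells, and −0.23 elsewhere. Col1a1 had 1.24 in surface ectoderm and −0.85 elsewhere, but 29 of its 37 KO UMIs were in 1 cell. Without the cell with most UMIs in each library the ratio of Col1a1 was −0.58. Of the 3618 genes compared, 25 had intervals on opposite sides of 0 in these sets of cells, 2 of them past 2-fold in surface ectoderm.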

How the results depend on the processing

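No paired analysis was possible because each genotype had 1 library and the labels gave no shared replicate numbers. The cause of each change below was not tested. The share ratio of 0.33 turned to −0.46 after thinning. The count of genes past 2-fold between KO and WT, 58 with 27 higher and 31 lower, was 29 (12 and 17) with 3 or more of the 7 epithelial genes required, 31 with Trp63 or Wnt6 required (13 lower), and 18 (10 and 8) after thinning. It moved to 3626 (1612 and 2014) with no UMI minimum, 332 (136 and 196) at 20 UMIs and 5 (1 and 4) at 200 UMIs, and 47 were lower with the exclusion genes dropped. Fewer cells or another minimum change how many genes reach the minimum. The S phase ratio was 0.095 with 3 genes required, 0.20 with Trp63 or Wnt6 and 0.060 after thinning. With Trp63 or Wnt6 required, 6 list genes passed 2-fold, and 7 genes were lower than in the placode gene cells. At 30 UMIs, 56 genes were higher than in all other cells. Ratios that changed sign were Ankrd1 at −0.094 with 3 genes required, −1.59 after thinning and −0.27 without the top cells, Col1a1 at −2.90 with 3 genes required and −0.58 without the top cells, Ttr at 0.68, Slc2a3 at −0.058 and Tfap2b at −0.089 with Trp63 or Wnt6 required, and Bmp2 at −0.50 and Cdh1 at −0.076 after thinning. Ratios where both libraries had 3 or fewer UMIs were left out of this list. With Trp63 or Wnt6 required, Col1a1 was such a case, at −1.65 (−7.53 to 2.62) on 2 UMIs in WT and 1 in KO. Thinning left 65 WT and 43 KO cells, so these values rest on few UMIs. Scaling by a median of ratios or a trimmed mean of log ratios moved every ratio by 0.01. Leaving out cells with 2 or more UMIs of other lineages left 0 WT and 8 KO cells and gave no value. The count models planned as alternatives were not run, since each genotype had 1 library.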
